A study of Homo sapiens with 3 samples.

Results

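Of the 62916 guides in a pooled knockout library, 5115 (8.13%) were directed at 1351 human microRNA genes with high numbers in the microRNA registry. They were taken by name from the deposited tables: the target is hsa-mir- followed by a number of 400 or more, leaving out mir-498, mir-512 to mir-527, mir-548, mir-1283 and mir-1323. The choice used no measured value. Of these microRNA genes 1199 had 4 guides, 60 had 3, 47 had 2 and 45 had 1. A guide needed at least 10 normalized reads in the day 0 library to be compared, which kept 5066 guides and set aside 49. The rest of the library held guides against 373 other microRNA genes, 55478 guides against genes that are no microRNA and 1000 non-targeting guides. Gene names are given below without the prefix hsa- where this is unambiguous.

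The cells were of the established gastric cancer line NUGC3 (human) and carried a GeCKO library, whose guide RNAs send the nuclease Cas9 to the DNA they match. The 3 groups were cells at day 0 (DMSO day 0), cells grown to day 14 in the solvent DMSO (DMSO day 14) and cells grown to day 14 in 10 nM RTX (RTX day 14), a compound whose name the labels do not spell out. All 3 groups carried the same library, each group was 1 library, and the titles set the groups, since the treatment protocol gives 14 days of treatment for the day 0 cells as well. No difference below therefore has a replicate check, no p-value for a condition can be given, and any 2 of the 3 comparisons share a library.

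A microRNA is cut from a hairpin in a longer transcript by Drosha with its partner DGCR8, and then by Dicer. In the silencing complex, the bases at the start of the mature strand, called the seed, pair with target messenger RNAs and lower their output. Registry numbers follow the order of discovery, so the highest numbers are mostly from deep sequencing, and many such hairpins are weakly conserved, sit inside introns of other genes, or lie in repeats or in genes of other small RNAs. A guide against a hairpin in a repeat can match many places, and Cas9 cuts at each place that it matches.

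The mature sequences of the members on which the results turn are shown first, from RefSeq with the build GRCh38.p14, 5′ to 3′, with the seed (bases 2 to 8) in capitals. By symbol 1307 of the 1351 genes were found in the RefSeq table and by synonym 12, and 1208 had a mature sequence there. The first set is from the list of microRNAs annotated in or overlapping Alu elements, the short repeats with the greatest number of copies in the human genome, because this list had the lowest abundance after growth.

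miR-1268a: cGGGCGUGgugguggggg
miR-1268b: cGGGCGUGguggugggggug
miR-1273c: gGCGACAAaacgagacccuguc
miR-1273h-3p: cUGCAGACucgaccucccaggc
miR-1285-3p: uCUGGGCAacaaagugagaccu
miR-1303: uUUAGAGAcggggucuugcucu
miR-1972: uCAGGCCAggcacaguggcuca
miR-3929: gAGGCUGAugugaguagaccacu
miR-5585-3p: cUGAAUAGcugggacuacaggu

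The second set is from chromosome 21, whose members were more abundant in RTX than in DMSO. None of these strands shares a seed with another.

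miR-4327: gGCUUGCAugggggacugg
miR-6501-5p: aGUUGCCAgggcugccuuuggu
miR-6501-3p: cCAGAGCAgccugcgguaacagu
miR-6508-5p: uCUAGAAAugcaugacccacc
miR-6508-3p: uGGGCCAUgcauuucuagaacu
miR-4760-5p: uUUAGAUUgaacaugaaguuag
miR-4760-3p: aAAUUCAUguucaaucuaaacc
miR-3197: gGAGGCGCaggcucggaaaggcg
miR-6814-5p: uCCCAAGGgugagaugcugcca

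The last set holds the conserved families with known targets among cyclins and other cell cycle genes, and a microRNA from each of 2 other classes of RNA gene. miR-424-5p and miR-497-5p have 1 seed in common, as have miR-449a and miR-449b-5p.

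miR-424-5p: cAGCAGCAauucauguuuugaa
miR-497-5p: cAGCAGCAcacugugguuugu
miR-503-5p: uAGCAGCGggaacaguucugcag
miR-449a: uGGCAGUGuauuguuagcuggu
miR-449b-5p: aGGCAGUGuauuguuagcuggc
miR-449c-5p: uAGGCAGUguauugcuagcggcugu
miR-663a: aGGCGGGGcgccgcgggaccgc
miR-1246: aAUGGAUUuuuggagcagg

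The depth was similar across the libraries, with 16547572 reads at day 0, 18805737 under DMSO and 17344507 under RTX. A member guide had a median of 197 reads at day 0, 210 under DMSO and 195 under RTX, against 230, 251 and 232 over all guides, and 6, 42 and 36 member guides had 0 reads. Ratios are on the log2 scale, from the deposited normalized values after adding 5 to each, so that 0 is about the middle of all guides and guides with few reads are pulled towards 0. The non-targeting guides gave the spread between libraries without a target: their SD was 0.53 for DMSO over day 0, 0.64 for RTX over DMSO and 0.56 for RTX over day 0 (n = 991), where counting error alone gave 0.15, 0.15 and 0.16. Their medians were 0.19, -0.10 and 0.11. A single guide inside this spread is not separable from it, so the text rests on guides of 1 gene that stand together and gives 95% counting intervals, which cover counting error only.

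As a group, the high-numbered microRNAs lay close to the middle of the library. Their median log2 ratio was -0.04 for DMSO over day 0, 0.02 for RTX over DMSO and -0.03 for RTX over day 0 (n = 5066 guides). After 14 days in DMSO, 457 member guides (9.02%) were at least 2-fold lower than at day 0, where 7.52% of all guides were, and 125 (2.47%) at least 2-fold higher, where 2.32% were. In RTX over DMSO, 426 (8.41%) were higher and 303 (5.98%) lower, against 7.89% and 5.43% of all guides. In RTX over day 0, 157 (3.10%) were higher and 326 (6.44%) lower, against 3.18% and 5.32%. The member shares were near these background shares in all 3 comparisons, and furthest above them among the guides lost during growth. Setting the non-targeting guides to 0 lowers the middle of all guides in DMSO over day 0 by 0.19. The split of the members there was then 67 higher and 649 lower. It was 513 higher and 241 lower in RTX over DMSO, and 112 higher and 418 lower in RTX over day 0. The shares of all guides on this scale are not given, so these counts have no background beside them.

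Loss in several guides of 1 gene was more frequent among the members than in the library. Of 1305 microRNA genes with at least 2 guides, 77 (5.90%) had 2 or more guides at least 2-fold lower in DMSO than at day 0, against 3.48% of 20173 genes. Most other genes have 3 guides, and a gene with 4 has more chances to reach 2. With 4 guides the share was 66 of 1157 members (5.70%) and 8 of 271 other microRNA genes (2.95%). With 3 guides it was 6 of 96 members (6.25%) and 605 of 17971 genes that are no microRNA (3.37%). The share was thus higher for the members at equal guide number, a difference that was not tested. Only 3 members (0.230%) had 2 guides higher, against 0.119% of genes.

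In RTX over DMSO, 46 members (3.52%) had at least 2 guides higher and 23 (1.76%) at least 2 lower, against 2.84% and 0.922% of genes. At equal guide number the members were not above the others there. With 4 guides 3.63% of members had at least 2 guides higher and 1.90% at least 2 lower, against 4.06% and 2.21% of other microRNA genes. With 3 guides it was 1.04% and 0% of 96 members, against 2.82% and 0.846% of genes that are no microRNA. In RTX over day 0 the counts were 5 higher (0.383%) and 35 lower (2.68%), against 0.644% and 1.44%. Guides of 1 gene often stood apart from each other: over the 1157 members with 4 guides, the median gap between the lowest and the highest guide was 1.13 for DMSO over day 0, 1.32 for RTX over DMSO and 1.10 for RTX over day 0.

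The authors' deposited tables also carry a false discovery rate per guide, and the text takes calls at under 0.05. The authors' deposited table of DMSO over day 0 called 454 member guides (8.88%) higher and 278 (5.44%) lower, against 9.77% and 5.84% of all guides. For RTX over DMSO, the authors' deposited table called 685 (13.4%) and 182 (3.56%), against 13.9% and 4.29%. The authors' deposited table of RTX over day 0 called 533 (10.4%) and 185 (3.62%), against 11.0% and 4.04%. The members' shares were all slightly below the background there, and the same deposited tables call 17.6%, 8.3% and 13.5% of the non-targeting guides higher.

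A test of recovered read counts (edgeR, exact, with a spread taken from the non-targeting guides, adjusted p under 0.05) called far fewer guides and compares the libraries, not the conditions. It called 7 member guides higher (0.138%) and 120 lower (2.37%) in DMSO over day 0, against a background of 0.129% and 2.07%. In RTX over DMSO it called 43 higher (0.849%) and 26 lower (0.513%), against 0.926% and 0.391%. In RTX over day 0 it called 10 higher (0.197%) and 40 lower (0.790%), against 0.195% and 0.664%. The members' shares by this test lay near the background.

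Of the lists described, the Alu-related list carried the deepest loss. Its 21 genes with 74 guides had a median log2 ratio of -0.79 for DMSO over day 0. Of these guides 33 (44.6%) were at least 2-fold lower and 4 (5.41%) higher, against 7.52% and 2.32% of all guides. Of the 21 genes, 19 had a median below 0 and 9 a median of -1 or lower. The loss was also present in RTX, with a median of -0.53 for RTX over day 0 and 20 of the 21 genes below 0. There 26 guides (35.1%) were lower and 0 higher, against 5.32% and 3.18% of all guides. Between RTX and DMSO the median of the list was near the middle, at 0.09, but its guides were spread more widely than the library. Of them 12 (16.2%) were higher and 9 (12.2%) lower, against 7.89% and 5.43% of all guides. The SD was 0.97, against 0.73 over all guides. The number of places that each guide matches was not counted here.

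Among the genes of this list with at least 3 guides mir-566 was lowest. Its 3 guides past the filter gave 32, 41 and 147 reads at day 0, 0, 0 and 27 under DMSO and 2, 0 and 58 under RTX, and the guide under the filter had 8, 0 and 6. The 3 guides were thus far less abundant in both day 14 libraries, and the summed reads of all 4 guides gave a log2 ratio of -3.24 (95% counting interval -3.87 to -2.66) for DMSO over day 0 and -1.80 (-2.21 to -1.39) for RTX over day 0. The median over guides was -2.96 and -2.41, and with so few reads it depended on the pseudocount: in DMSO over day 0 it was -5.13 with a pseudocount of 1 and -1.67 with 20.

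The guides of mir-1273h gave 57, 72, 174 and 248 reads at day 0, 10, 16, 198 and 59 under DMSO and 16, 29, 196 and 183 under RTX. In DMSO 3 of the 4 were at least 4-fold lower and the other, at 0.03, was not, which put the median at -2.07. The 4 guides of mir-1273d gave 51, 73, 92 and 306 reads at day 0, 4, 33, 13 and 336 under DMSO and 2, 34, 38 and 301 under RTX. Here again 1 guide, the most abundant, kept its level at -0.02 while the others were lower, and the median was -1.87. With a pseudocount of 20 the medians of mir-1273h and mir-1273d in DMSO over day 0 were -1.45 and -1.28.

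The guides of mir-1273a gave 14, 18, 26 and 61 reads at day 0, 1, 0, 93 and 20 under DMSO and 2, 0, 25 and 16 under RTX. They gave a median of -1.64 in DMSO and -1.55 in RTX over day 0, with 1 guide higher in DMSO. In DMSO over day 0 the median of mir-1273a was -2.37 with a pseudocount of 1 and -0.85 with 20. The guides of mir-1273g gave 50, 79, 202 and 770 reads at day 0, 0, 23, 100 and 995 under DMSO and 40, 94, 107 and 639 under RTX. Its 2 least abundant guides were back near their day 0 level in RTX, so that RTX over DMSO stood at 1.09. In these mir-1273 genes, then, guides with a large loss and a guide with none stood side by side.

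mir-1972 has 2 numbered copies with 1 guide each. The guide of mir-1972-1 gave 238 reads at day 0, 23 under DMSO and 49 under RTX, and that of mir-1972-2 had 216, 271 and 187. These stood at -3.26 and 0.16 for DMSO over day 0, the lowest and the highest gene value of the Alu-related list, although both copies give the mature sequence shown above. In mir-1268a the guides gave 16, 37, 161 and 170 reads at day 0, 0, 126, 95 and 70 under DMSO and 0, 42, 83 and 85 under RTX, and 3 of the 4 were lower in both. In mir-3929, 2 guides passed the filter, with 21 and 196 reads at day 0, 0 and 22 under DMSO and 2 and 72 under RTX. Other genes of the list were near 0 in DMSO over day 0, with mir-1303 at -0.03, mir-1273f at -0.03 and mir-619 at -0.10. Of these, mir-1303 was lower in RTX, at -0.83 over day 0 and -0.91 over DMSO.

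MicroRNAs annotated in genes of other RNAs (ribosomal, small nucleolar or spliceosomal) formed a second list, of 12 genes with 44 guides. Its median was -0.47 for DMSO over day 0, with 10 of the 12 genes below 0. Of the guides 12 (27.3%) were lower and 1 (2.27%) higher, against 7.52% and 2.32% of all guides. It was -0.17 for RTX over day 0, and 0.30 for RTX over DMSO, where 7 guides were higher and 0 lower. mir-663a, which lies in sequence related to ribosomal RNA, gave 13, 20, 79 and 236 reads at day 0, 4, 0, 48 and 95 under DMSO and 2, 11, 40 and 89 under RTX. All 4 guides were lower in both day 14 libraries, and the median was -1.26 in DMSO and -1.14 in RTX over day 0.

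The related mir-663b gave 15, 122 and 287 reads at day 0 in the guides past the filter, 0, 51 and 132 under DMSO and 0, 76 and 212 under RTX, with medians of -1.33 in DMSO and -0.66 in RTX over day 0. mir-3648, also near ribosomal RNA genes, gave 53, 120, 135 and 137 reads at day 0, 32, 27, 119 and 92 under DMSO and 28, 85, 81 and 113 under RTX. All 4 of its guides were below their day 0 level in both, at medians of -0.75 and -0.60. mir-3687 stood at -0.37 in DMSO over day 0 and at 0.08 in RTX over day 0. mir-1246, whose sequence is also found in the U2 spliceosomal RNA, was near the middle at -0.10 and 0.06, with guides on both sides of 0 in DMSO.

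Another list came from names alone: 59 members with a copy number in the name and at least 2 such copies among the members, with 154 guides. A numbered name with no second copy among the members, such as mir-6859-2, was not counted in it. Of these guides 27 (17.5%) were at least 2-fold lower in DMSO than at day 0, against 8.75% of the other 4912 member guides, and the median was -0.21. In RTX over DMSO 25 (16.2%) were higher, against 8.16% of the other member guides, with a median of 0.15. In RTX over day 0 19 (12.3%) were lower, against 6.25% of the other member guides, with a median of -0.08. The 2 copies hsa-mir-7641-1 and hsa-mir-7641-2 stood at -2.93 and -1.27 for DMSO over day 0 and at 2.59 and 0.70 for RTX over DMSO, over 2 guides each. In mir-6859-2, which is outside this list, the guides gave 99 and 332 reads at day 0, 0 and 164 under DMSO and 12 and 203 under RTX. The first of these, at -4.46 with the pseudocount, was the lowest member guide of DMSO over day 0.

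mir-3180-4, of another family with several copies, gave 82, 141 and 413 reads at day 0, 9, 52 and 177 under DMSO and 61, 111 and 304 under RTX. All 3 guides were lower in DMSO, at a median of -1.51, and nearer to day 0 in RTX, at -0.41. Without the Alu-related, other RNA and numbered copy lists, 4804 member guides were left, of which 388 (8.08%) were lower and 119 (2.48%) higher in DMSO over day 0. In RTX over day 0 279 of them (5.81%) were lower. Both shares of lower guides lay closer to the background than those of all members, and the share of higher guides did not. The lists taken out held larger shares of lower guides than all members, so the drop follows from their removal and is no separate result.

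Members found to share a stretch of hairpin with a microRNA of another number were not lower in DMSO than at day 0. Copies with the same number were not counted as sharing, and 1105 of the 1351 members had a hairpin in RefSeq. In 15 members, with 41 guides, the RefSeq hairpin shared a run of at least 18 bases, on either strand, with a microRNA of another number. Hairpins on opposite strands of the same place therefore also count as sharing, and the places that each guide matches were not counted. The median of these 15 members was 0.13 for DMSO over day 0, with 0 guides lower and 0 higher. Members with a RefSeq hairpin and no such run had 7.68% of 4139 guides lower. The base composition of the hairpin did not order the values either: in 5 bands from under 40% to over 70% G and C, the medians of DMSO over day 0 were -0.04, -0.02, 0.01, -0.06 and -0.02.

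By registry number, the band from mir-1000 to mir-1999 had the largest share of lost guides, 62 (12.8%) in DMSO over day 0. Without the Alu-related members in this band the share was 42 of 440 (9.55%). It was 5.19% from mir-400 to mir-499, 8.85% from mir-500 to mir-999, 4.23% from mir-2000 to mir-2999, 8.26% from mir-3000 to mir-3999 and 8.94% of the 2942 guides from mir-4000 on. Loss therefore did not grow steadily with the number. At the lower limit of the rule, the last gene outside, mir-384, stood at 0.06 for DMSO over day 0 and the first inside, mir-409, at -0.03.

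Outside the lists above, mir-1304 and mir-483 had several guides lost in DMSO. The Alu-related list was set by name, and members outside it were not checked for repeats. The guides of mir-1304 gave 119, 151, 331 and 429 reads at day 0, 19, 9, 189 and 299 under DMSO and 55, 27, 189 and 233 under RTX. All 4 were lower in both day 14 libraries, with medians of -1.73 and -0.96 over day 0. TAF1D, the protein-coding gene around it, stood at 0.29.

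mir-483 lies in an intron of the growth factor gene IGF2. Its guides gave 38, 94, 102 and 128 reads at day 0, 13, 0, 78 and 35 under DMSO and 36, 72, 83 and 23 under RTX. All 4 were lower in DMSO, at a median of -1.63 and a summed ratio of -1.68 (95% counting interval -1.99 to -1.39), but 3 of the 4 were close to day 0 in RTX, at a median of -0.33. IGF2 itself stood at 0.18 in DMSO over day 0. In mir-6507 the guides fell into 2 pairs, with 62 and 163 reads at day 0, 1 and 10 under DMSO and 9 and 221 under RTX for one, and 122 and 243 at day 0, 134 and 261 under DMSO and 62 and 164 under RTX for the other. Its median of -1.81 lay in the gap between the pairs, at no guide's value, and was -1.04 with a pseudocount of 20.

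In all, 21 of 1305 members had at least 3 guides 2-fold lower in DMSO than at day 0 (none had 4), against 125 of 20173 genes. With 4 guides it was 17 of 1157 members and 1 of 271 other microRNA genes. With 3 guides it was 4 of 96 members and 103 of 17971 genes that are no microRNA. The difference was not tested. Besides those above, the 21 members were mir-1306, mir-3147, mir-4516, mir-4769, mir-5096, mir-629, mir-641, mir-6879, mir-6893, mir-708, mir-8086 and mir-939, with medians from -1.65 for mir-4769 to -1.09 for mir-5096. With a pseudocount of 20 the median in DMSO over day 0 was -1.01 for mir-4769 and -0.99 for mir-8086. mir-1306 lies in the transcript of DGCR8, the partner of Drosha. It gave 97, 221, 226 and 463 reads at day 0, 44, 81, 116 and 444 under DMSO and 24, 163, 196 and 437 under RTX, with a median of -1.15 in DMSO and -0.32 in RTX over day 0. In RTX over day 0 the members with at least 3 guides lower were mir-566, mir-1273a, mir-1273d and mir-4761. That was 4 of 1305 members, against 30 of 20173 genes.

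In mir-4761 the guides gave 173, 180, 237 and 247 reads at day 0, 126, 150, 221 and 294 under DMSO and 64, 80, 102 and 234 under RTX. Here the lower level appeared in RTX: 3 guides stood between -1.37 and -1.13 against day 0, and the median in DMSO over day 0 was -0.33.

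Few members were higher after growth in DMSO. The highest medians over at least 3 guides were 0.87 for mir-675, which is made from the noncoding RNA H19, 0.78 for mir-1251 and 0.74 for mir-3195. The guides of mir-675 gave 38, 81, 272 and 680 reads at day 0, 109, 182, 524 and 945 under DMSO and 33, 99, 434 and 708 under RTX. All 4 were higher in DMSO, from 0.31 to 1.26, and the median in RTX over day 0 was 0.16. All 4 guides of mir-1251 were likewise higher in DMSO, from 0.26 to 1.31, and lower in RTX than in DMSO, from -0.92 to -0.61.

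The comparison of RTX with DMSO asks which knockouts did better or worse in the drug, and here the members on chromosome 21 stood out. Their 16 genes with 58 guides had a median log2 ratio of 0.56, and 47 of the 58 guides were above 0. Of these guides 18 (31.0%) were at least 2-fold higher and 0 lower, against 7.89% and 5.43% of all guides. Over the other 22 chromosomes the median of the members ranged from -0.09 on chromosome 12 to 0.15 on chromosome 4. The largest share of higher member guides on another chromosome was 15.4%, on chromosome 4. For RTX over day 0 the chromosome 21 members stood at 0.60, and the other chromosomes ranged from -0.19 to 0.05. There 9 guides on chromosome 21 (15.5%) were higher and 0 lower, against 3.18% and 5.32% of all guides. In DMSO over day 0 the chromosome 21 members stood at -0.09, so the shift was present in the RTX library against both others.

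Guides against other genes on chromosome 21 showed a shift of the same kind. Their 628 guides to 212 genes had a median of 0.75 for RTX over DMSO, with 36.3% higher, and 0.68 for RTX over day 0, with 29.8% higher. Among the 16 microRNA genes, 15 were above 0 in RTX over DMSO and 13 in RTX over day 0. In the order of the RefSeq table along the chromosome, the 3 genes below 0 in RTX over day 0 were the first, mir-3648 (-0.60), the third, mir-3118-1 (-0.38, 1 guide), and the fourteenth, mir-5692b (-0.25). The genes from mir-4759 to mir-6814 were all above 0, from 0.44 to 0.98. A common shift of guides to unlike microRNAs, whose seeds above are all different, was thus measured along most of the chromosome, and its cause was not tested.

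mir-4760, inside DSCAM, had the highest median in RTX over DMSO among members with at least 3 guides, 1.86. The 2 least abundant of its guides gave 25 and 93 reads at day 0, 4 and 20 under DMSO and 41 and 114 under RTX. Their ratios of 2.45 and 2.38 rest on few reads in DMSO, and against day 0 they stood at 0.61 and 0.27. The other guides, with 185 and 479 reads under DMSO, stood at 1.34 and -0.09 in RTX over DMSO. Summed over guides, the ratio was 0.67 (95% counting interval 0.53 to 0.81) for RTX over DMSO.

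mir-6501, inside the splicing factor gene SON, gave 25, 91, 165 and 176 reads at day 0, 5, 204, 106 and 79 under DMSO and 53, 179, 194 and 312 under RTX. All 4 guides were above day 0 in RTX, from 0.22 to 0.95, and the median was 1.51 for RTX over DMSO. mir-6508, inside SH3BGR, gave 22, 48, 61 and 442 reads at day 0, 12, 21, 90 and 588 under DMSO and 32, 92, 192 and 572 under RTX. Its 4 guides were all above 0 in both comparisons of RTX, at medians of 1.21 over DMSO and 0.66 over day 0.

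In mir-4327 and mir-6814 the shift was present in every guide. mir-4327 gave 44, 469, 469 and 514 reads at day 0 and 187, 810, 787 and 687 under RTX, and its guides stood from 0.54 to 0.89 in RTX over DMSO. All 4 guides were higher in RTX than in both other libraries, and the summed ratios were 0.66 (95% counting interval 0.57 to 0.75) over DMSO and 0.72 (0.62 to 0.81) over day 0. mir-6814 gave 62, 160, 161 and 205 reads at day 0, 141, 198, 169 and 226 under DMSO and 287, 241, 266 and 322 under RTX, again with all 4 guides higher in RTX, at medians of 0.71 over DMSO and 0.67 over day 0. mir-3197 had the highest median on the chromosome in RTX over day 0, 0.98, with 43, 62, 65 and 94 reads at day 0, 52, 39, 188 and 127 under DMSO and 25, 133, 213 and 184 under RTX, of which 1 guide was lower.

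Away from chromosome 21, mir-4442, mir-4448 and mir-6894 were high in RTX over DMSO, with medians of 1.45, 1.18 and 1.21. mir-4448 gave 27, 53, 159 and 261 reads at day 0, 13, 19, 123 and 186 under DMSO and 32, 49, 175 and 395 under RTX. All 4 guides were lower in DMSO than at day 0 and back at about their day 0 level or above it in RTX, where the median over day 0 was 0.17. mir-6894, in the histone demethylase gene KDM5C, gave 119, 72, 302 and 684 reads under DMSO and 266, 267, 288 and 1382 under RTX, and 3 guides were higher in RTX than in both other libraries. mir-4448, mir-6894, mir-4760 and mir-6508 were the 4 members with at least 3 guides 2-fold higher in this comparison. That was 4 of 1305 members, against 79 of 20173 genes.

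mir-3139, inside the adaptor gene GAB1, had the highest median of RTX over day 0 among members with at least 3 guides, 1.16. It was the only 1 of 1305 members with at least 3 guides higher there, against 18 of 20173 genes. Its guides gave 48, 54, 125 and 212 reads at day 0, 47, 37, 191 and 152 under DMSO and 124, 211, 264 and 146 under RTX. The 3 less abundant guides were higher in RTX, from 1.04 to 1.87, and the fourth was lower, at -0.53. GAB1 stood at -0.14 in DMSO over day 0.

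The lowest medians of RTX over DMSO, again over at least 3 guides, were -1.15 for mir-5004 and -1.02 for mir-454, followed by mir-4641. mir-5004 gave 89, 126, 221 and 327 reads at day 0, 212, 150, 200 and 500 under DMSO and 61, 38, 163 and 276 under RTX. All 4 guides were lower in RTX, from -1.72 to -0.15. mir-454, inside the kinetochore gene SKA2, gave 68, 129, 142 and 278 reads at day 0, 104, 81, 322 and 312 under DMSO and 22, 172, 127 and 153 under RTX. Of its guides 3 were lower in RTX than in DMSO and 1 was higher, at 1.18. mir-4641 gave 100, 119, 222 and 258 reads at day 0, 181, 148, 208 and 312 under DMSO and 55, 48, 122 and 283 under RTX, with 3 guides lower and 1 at its DMSO level. None of the 1305 members had 3 guides 2-fold lower in this comparison, against 2 of 20173 genes.

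Conserved microRNAs with known roles in the cell cycle mostly lay near the middle. mir-424 and mir-497 belong to the miR-15/16 family and, with mir-503, lower cyclins and other drivers of the entry into S phase, while the mir-449 genes are relatives of miR-34. The 6 genes with 24 guides had medians of 0.21 for DMSO over day 0, -0.30 for RTX over DMSO and 0.01 for RTX over day 0. In DMSO over day 0, 0 guides were lower and 1 (4.17%) higher, against 7.52% and 2.32% of all guides. In RTX over DMSO, 2 (8.33%) were higher and 1 (4.17%) lower, against 7.89% and 5.43%. In mir-424 the guides gave 174, 277, 341 and 479 reads at day 0, 182, 442, 274 and 584 under DMSO and 213, 375, 515 and 421 under RTX. They stood on both sides of 0 in DMSO, at a median of 0.02, and at 0.13 in RTX over DMSO.

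The guides of mir-503, the neighbour of mir-424 on the X chromosome, gave 232, 288, 415 and 419 reads at day 0, 373, 266, 582 and 527 under DMSO and 211, 672, 421 and 560 under RTX. A single guide, with 672 reads in RTX, was at least 2-fold higher, and the medians were 0.25 in DMSO over day 0 and -0.05 in RTX over DMSO. mir-497, with the seed of miR-424-5p, stood at 0.16 in DMSO over day 0 and -0.05 in RTX over DMSO.

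The 3 mir-449 genes share an intron of CDC20B. mir-449b gave 102, 119, 132 and 322 reads at day 0, 90, 194, 126 and 435 under DMSO and 53, 57, 118 and 211 under RTX. Its median was -0.74 in RTX over DMSO and its summed ratio -0.80 (95% counting interval -0.97 to -0.64). mir-449a, with the same seed, had guides from -0.81 to 0.84 there, and stood at 0.03 with a summed ratio of -0.13 (-0.26 to -0.00). mir-449c lay between them with a median of -0.53. The spread of the guides within mir-449a was wider than the difference between these genes, which was not tested.

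The imprinted cluster at 14q32, whose microRNAs are made from the maternal chromosome, was the largest of the cluster lists. Its list of 32 genes with 117 guides had a median of 0.10 for DMSO over day 0, 0.04 for RTX over DMSO and 0.05 for RTX over day 0. Only 2 guides (1.71%) were lower and 1 higher in DMSO over day 0, below the background shares. RefSeq places mir-544b of this list on chromosome 3. mir-494, a member of the cluster, gave 62, 142, 172 and 198 reads at day 0, 58, 224, 143 and 172 under DMSO and 20, 280, 137 and 266 under RTX, with medians of -0.29 in DMSO over day 0 and 0.26 in RTX over DMSO. The lowest gene of the cluster with 4 guides in DMSO over day 0 was mir-487a at -0.85. Its guides gave 104, 150, 159 and 164 reads at day 0, 59, 109, 101 and 89 under DMSO and 72, 274, 219 and 114 under RTX, so that all 4 were lower in DMSO and all 4 higher in RTX than in DMSO.

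The X-linked clusters were near the middle as well. The 6 genes at Xq26 with 22 guides include mir-424 and mir-503. Their medians were 0.17, 0.09 and 0.30 in DMSO over day 0, RTX over DMSO and RTX over day 0. Of the 22 guides 0 were lower in each, against 7.52%, 5.43% and 5.32% of all guides. The 6 genes at Xp11 inside CLCN5 stood at 0.16, -0.10 and 0.16, and the 12 genes at Xq27 at 0.04, -0.05 and -0.04. When the non-targeting guides were set to 0, the DMSO over day 0 medians of 14q32, Xp11, Xq26 and Xq27 turned negative, at values down to -0.10, -0.04, -0.03 and -0.16, so no direction is drawn for these clusters.

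Mirtrons are short introns that become microRNA hairpins by splicing, without Drosha. The mirtron list was set by name, and how each of its hairpins is processed was not checked. Its 11 genes with 44 guides had medians of -0.02, -0.12 and -0.07 in the 3 comparisons. In DMSO over day 0, 3 of these guides (6.82%) were lower and 0 higher, against 7.52% and 2.32% of all guides. The RTX library held 5 of them (11.4%) at a higher and 3 (6.82%) at a lower level than DMSO, against 7.89% and 5.43% of all guides. Compared with day 0, RTX had 5 (11.4%) higher and 2 (4.55%) lower, against 3.18% and 5.32%. mir-1236, in the gene of the elongation factor subunit NELFE, gave 98, 129, 163 and 232 reads at day 0, 75, 139, 206 and 270 under DMSO and 34, 94, 121 and 138 under RTX. All 4 of its guides were lower in RTX than in DMSO, at a median of -0.71. mir-1225, in PKD1, had guides on both sides, from -0.86 to 2.73 in RTX over DMSO.

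Many members lie inside protein-coding genes: 933 did so by RefSeq, and 897 of these had a host with at least 2 guides of its own. In 21 members with 76 guides the host's own median was -1 or lower in DMSO over day 0. Of these 76 guides 13 (17.1%) were lower, with a median of -0.17, against 8.17% of 3331 guides in other hosts, with a median of -0.04. In RTX over DMSO 10 of the 76 (13.2%) were higher, with a median of 0.24, against 7.99% and 0.02. Outside protein-coding genes 9.01% of 1421 guides were lower in DMSO over day 0.

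The values of the nested members did not follow those of the host in each case. mir-630 stood at -0.18 while its host ARIH1, a ubiquitin ligase gene, stood at -2.18. mir-3611 stood at -0.77 in CUL2 (-1.39), mir-6728 at -0.66 in the glycolysis gene ENO1 (-1.44) and mir-4721 at -0.66 in TUFM (-1.36), a mitochondrial translation factor gene. In PKD1 (-1.02), mir-4516 stood at -1.25 and mir-1225 at 0.22.

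The most extreme single guides mostly stood alone in their gene. One guide of mir-764 was the most abundant of all 62916 guides in the DMSO library, with 5423 reads, after 1488 at day 0, and had 943 in RTX. The other 3 guides of mir-764 gave 121, 171 and 189 reads at day 0, 133, 181 and 190 under DMSO and 74, 181 and 102 under RTX, so the high level belonged to 1 guide. This guide was named after its values were seen. A guide of mir-3121 gave 72 reads at day 0, 21 under DMSO and 437 under RTX, the highest member ratio of RTX over DMSO (4.21), while the other 3 guides of its gene stood between -1.34 and -0.39. A guide of mir-2052 had 79, 136 and 6 reads, the lowest of that comparison at -3.58, and the other guide of its gene stood at -0.03.

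In RTX over day 0 the highest member guide, against mir-4475, gave 57 reads at day 0, 86 under DMSO and 735 under RTX (3.57), and the other 3 guides of mir-4475 stood between -0.17 and 0.17. The guide of mir-3140 with 238 reads at day 0 and 1159 in DMSO had 145 in RTX. It was therefore both among the 5 highest members of DMSO over day 0, at 2.10, and among the 5 lowest of RTX over DMSO, at -2.82, through the same DMSO value.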

How the data were processed

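Guide abundance was measured by amplifying and sequencing the guides from genomic DNA of 3 NUGC3 cultures. The authors deposited 3 guide tables, 1 a pair of libraries. The submitters' processing notes name MAGeCK 0.5.7 and the build hg19. The tool that matched reads to guides was not given in the sources used here. The deposited values are a signal: reads of a guide after division by a size factor of its library, set by the authors for each pair. Whole reads came back on dividing by the value of 1 read (at least 99.997% of values within 0.1 of a whole number), and the reads printed are these. Each deposited table also holds p-values and an FDR (q-value) for every guide, by the authors.

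Log2 ratios of the deposited values were computed with a pseudocount of 5 where the day 0 library had at least 10 normalized reads. A gene's value is the median over its guides, and at least 2-fold was counted. Counting intervals are exact conditional binomial (Clopper-Pearson, 95%) on recovered reads. PCR reads are not independent molecules, so these intervals cover counting error only. The count test was edgeR 4.0.16 (exact test, dispersion from the non-targeting guides, Benjamini-Hochberg over 62610 guides, threshold 0.05). It and the ratios were tested on simulated data. Chromosomes, hosts and sequences came from RefSeq tables of GRCh38.p14. As the build differs from hg19, coordinates are left out.

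The members and lists were chosen with earlier results of these data known, and a list is described by counts and medians only. Genes were named by a rule: in each comparison the 6 lowest and 6 highest medians over at least 3 guides, every gene with at least 3 guides 2-fold in 1 direction, the 5 lowest and 5 highest guides, and 15 genes by name, of which not all are printed. Genes of the described lists are also named. The alternatives tried were a pseudocount of 1 or 20, a filter of 50 reads or none, equal totals or the non-targeting guides as the scale, a fold of 4, the mean of guides, the count test, and leaving out chromosome 21 or numbered copies. Leaving out mir-566 was chosen after seeing the data.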

Additional observations from a re-analysis of the deposited data

How the results depend on the processing

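With a pseudocount of 1, without chromosome 21 and without numbered copies, every count and median over the members stayed within the limits set for a change. With a pseudocount of 20, DMSO over day 0 gave 75 guides higher, 300 lower, and 1 and 42 genes with at least 2 such guides. RTX over DMSO then gave 27 genes higher and 11 lower, and RTX over day 0 gave 102 guides higher, 200 lower, and 1 and 16 genes. Without the filter, 8 genes were higher in DMSO over day 0. With at least 50 reads, 78 guides and 1 gene were higher in DMSO over day 0, 15 genes lower in RTX over DMSO, and 2 genes higher and 17 lower in RTX over day 0. The shares over the whole library at these settings, and at the other scales below, are not given. These member counts therefore have no background beside them.

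Scaled to the non-targeting guides, the member medians were -0.239, 0.1213 and -0.1328 in DMSO over day 0, RTX over DMSO and RTX over day 0, with 67 guides and 1 gene higher in the first, 12 genes lower in the second and 1 gene higher in the third. Scaled to equal totals the medians were -0.06732, -0.001902 and -0.08367, with 3 genes higher in RTX over day 0. At 4-fold, DMSO over day 0 gave 5 guides higher, 100 lower, 0 genes higher and 9 lower. At 4-fold, RTX over DMSO gave 59, 37, 3 and 0, and RTX over day 0 gave 9, 53, 0 and 2. These are of 5066 member guides. Of all 62610 guides, 43 were 4-fold higher and 1017 lower in DMSO over day 0. The same counts were 821 and 380 in RTX over DMSO, and 119 and 477 in RTX over day 0. The count test gave 7, 120, 0 and 11 in DMSO over day 0. It gave 43, 26, 1 and 0 in RTX over DMSO, and 10, 40, 0 and 2 in RTX over day 0. The shares of all genes at 4-fold and by the count test are not given, so those gene counts have no background beside them.

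Of 2241 values of single genes and lists under alternatives, 54 moved beyond the limits. The Alu-related median in DMSO over day 0 ranged from -0.987 to -0.618, also without mir-566, and the chromosome 21 median in RTX over DMSO from 0.533 to 0.658. The planned use of the authors' own fold column was not run. No paired analysis was possible because each condition had 1 library. Guides with few reads at day 0 limit the depth of a measured loss, and the spread between replicate cultures was not measured.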
